A study of Saccharomyces cerevisiae with 78 samples.

Results

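The 9 genes described here are FET3 (YMR058W), FTR1 (YER145C), FRE1 (YLR214W), FRE2 (YKL220C), CCC2 (YDR270W), FTH1 (YBR207W), MRS4 (YKR052C), TIS11 (YLR136C) and HMX1 (YLR205C), which encode the reductive iron uptake system of budding yeast and proteins that place or save iron. They were chosen by name, as 9 of the 5229 genes with a row in the deposited count files, at a time when results of these same libraries against the control were known. Their differences from the control are therefore given as descriptions. Where a member is said to be called, its adjusted p in the fit over all genes was under 0.05, and such calls are counted beside the share of all genes called and support nothing. The libraries measured polyadenylated RNA of BY4742, a haploid MATalpha laboratory strain of Saccharomyces cerevisiae that needs added histidine, leucine, lysine and uracil. Each group carried a plasmid, and all groups were grown in the medium that the labels call SDCGal-Ura and collected in mid-logarithmic growth, so galactose medium and a plasmid were shared by the control. There were 25 fusion-gene clones, each known only by its code, and 1 control plasmid, each with 3 biological replicates per the labels, which made 26 groups and 78 libraries. The design text speaks of 22 clones while the labels hold 25, and all 25 were used. No label names the genes joined in a clone, and none gives the iron or copper content of the medium. Since whole cultures were measured, fewer cells with a transcript and less of it per cell cannot be told apart.

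Yeast takes up iron at low supply by reducing ferric iron at the cell surface and then importing it through a paired oxidase and permease. Surface reductases such as Fre1 and Fre2 make ferrous iron, the multicopper ferroxidase Fet3 oxidises it again, and the permease Ftr1 carries it inward. Fet3 needs copper, which the pump Ccc2 delivers to it in the secretory pathway. Fth1 is the permease of a similar complex on the vacuole, Mrs4 brings iron into mitochondria, Tis11 (also called Cth2) binds and destabilises messenger RNAs of iron-using proteins, and Hmx1 is a haem oxygenase. The transcription factor Aft1 is known to activate these genes when iron is scarce, while FRE1 is also a target of the copper-sensing activator Mac1.

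Libraries held 10773809 to 18981572 counts, with a median of 14019225, and the 3 control libraries held 13086342 to 15351634. The 9 genes took 0.068 to 0.207% of the counts on genes in a library. The lowest count of any of them was 35, for HMX1, and the highest 13447, for FET3. Values are given as CPM, counts scaled to a common library size with edgeR's TMM factors, in the order of replicates 1, 2 and 3. By the library names, replicates 1 and 2 of every group belonged to a first set of 52 libraries and replicate 3 to a resubmitted set of 26. Within each set the names also carry a plate row, and the clones of first-set rows A and B were those of resubmitted row A. The control library of the resubmitted set carries another plasmid name, PP2061, than the first-set control libraries, p416-GAL1, although the label is the same. For clone M492-E01, the names of replicates 1 and 2 carry the code M585-B08. Of the markers of alpha cells, MF(ALPHA)1 stood at a mean of 652, STE3 at 247, SAG1 at 147 and MF(ALPHA)2 at 30.4 CPM in the control. The a-cell genes STE2 and BAR1 stood at 19.5 and 10.9 CPM, and MFA1 and MFA2 were not analysed here. In the resubmitted control library MF(ALPHA)2, at 19.4 CPM, was level with STE2 at 19.2 CPM. The levels of MF(ALPHA)1, STE3 and SAG1 go with the labelled strain, and MF(ALPHA)2 separates the cell types less clearly.

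Per kilobase of coding length, the permease and its oxidase partner were the most abundant of the 9 transcripts in the control. FTR1 stood at 394 ± 87.9 and FET3 at 378 ± 38.8 CPM per kilobase (SD, n = 3), so their levels did not differ beyond the spread. The vacuolar permease gene FTH1 followed at 98.0 ± 9.64 and TIS11 at 72.6 ± 17.6 on the same scale. MRS4 at 39.0 ± 2.96, FRE1 at 34.7 ± 3.66 and CCC2 at 32.4 ± 7.85 lay close together and overlapped in their spread. FRE2 stood at 14.9 ± 0.738 and HMX1 at 7.10 ± 2.03. Over all 78 libraries the genes differed in how far they ranged. The highest library was 6.29 times the lowest for FET3, 5.06 times for FTR1, 4.52 times for TIS11 and 3.50 times for HMX1. That ratio was 2.28 for FRE1, 2.10 for CCC2, 1.60 for FRE2, 1.56 for MRS4 and 1.51 for FTH1.

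FET3, the ferroxidase gene, was lower than in the control in most clones, and the order of the groups was gradual. In the control it stood at 754, 776 and 638 CPM, a mean of 723 ± 74.1 (SD, n = 3), and this was the 24th of 26 levels when counted from the lowest after adjustment for library set. In M495-F02 the values were 165, 150 and 298 CPM, the lowest mean of all groups. All 3 of these libraries were far below every control library. M491-D09 followed with 210, 229 and 360 CPM. M490-A12 had 276, 287 and 254 CPM. In M495-D09 FET3 stood at 214, 248 and 403 CPM, so that replicate 3 was the high one, as in M495-F02 and M491-D09 but not in M490-A12. M491-C07 held 317, 300 and 326 CPM. The values in M490-F09 were 374, 378 and 227 CPM, here with replicate 3 as the low one.

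A broad middle of the order lay at about the same FET3 level. M491-C06 had 356, 338 and 370 CPM. M491-C12 had 453, 327 and 320 CPM. M491-C09 had 354, 414 and 341 CPM. All libraries of these groups lay below the lowest control library. In M491-C04 the values were 379, 350 and 380 CPM. In M491-D01 they were 392, 367 and 382 CPM. In M491-C03 they were 469, 417 and 333 CPM. The next groups differed from these by a high resubmitted library. M491-F10 stood at 345, 341 and 602 CPM. M492-C04 stood at 374, 342 and 600 CPM. M491-E04 stood at 402, 355 and 591 CPM. Their first-set values were like those of the groups just described, and their resubmitted values came close to the resubmitted control at 638 CPM.

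Towards the top of the FET3 order most groups overlapped the control. M491-D07 held 478, 459 and 510 CPM, still below every control library. FET3 in M492-E01 stood at 438, 455 and 792 CPM. FET3 in M495-C02 stood at 459, 485 and 747 CPM. In both, replicate 3 exceeded the resubmitted control while replicates 1 and 2 lay below all control libraries. The widest split was in M492-D07, with 466, 424 and 946 CPM, the last being the highest FET3 value of any library. M497-F10, which shared its plate rows with the control in both sets, had 549, 566 and 607 CPM, all below the control. M491-E09 had 610, 542 and 666 CPM. These 2 groups showed little difference between the sets. FET3 in M492-C11 was at 533, 484 and 856 CPM. FET3 in M491-F02 was at 556, 564 and 773 CPM. M493-C02 with 814, 672 and 853 CPM and M492-E11 with 827, 757 and 784 CPM ranked just above the control. Of the 25 pairs of neighbouring groups in this order, 24 differed by less than the residual SD of 0.28 on the log2 scale. The exception was the step of 0.41 between M495-F02 and M491-D09. Steps between sorted neighbours are small by construction, and this SD is that of single libraries. Such counts, here and below, are therefore descriptions only.

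**Figure D1:**
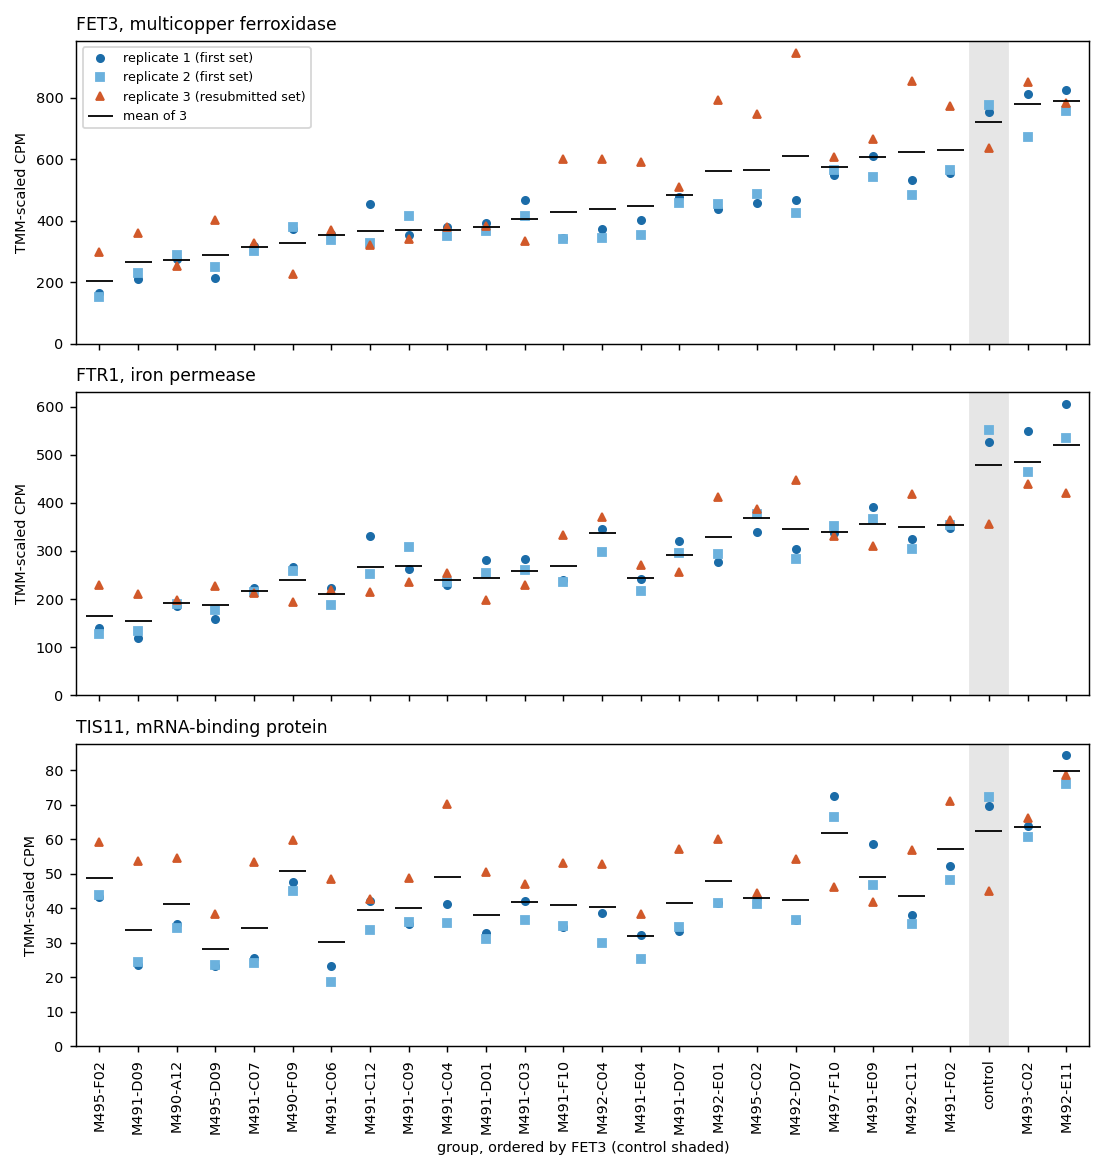
TMM-scaled CPM (y axis) of FET3, FTR1 and TIS11 in every library, with the 26 groups on the x axis in the order of their FET3 level and the control shaded; circles and squares are first-set libraries, triangles resubmitted ones, and lines the mean of 3. FET3 and FTR1 climb together from M495-F02 and M491-D09 to M493-C02 and M492-E11, while the TIS11 triangles lie above its first-set points in most clones and below them in the control.

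FTR1, the permease gene, followed much the same order. Its control libraries stood at 526, 553 and 356 CPM, a mean of 478 ± 107 (SD, n = 3), with the resubmitted one clearly the lowest. The lowest group was M491-D09 with 120, 134 and 210 CPM. M495-F02 had 140, 126 and 229 CPM. These groups held the lowest FET3 levels as well. FTR1 in M495-D09 stood at 159, 176 and 227 CPM. In M490-A12 the values were 186, 190 and 198 CPM. In M491-C06 they were 223, 188 and 218 CPM, so that the sets hardly differed there. M491-C07 had 223, 214 and 212 CPM. M490-F09 had 267, 259 and 194 CPM. M491-C04 had 230, 234 and 255 CPM. All of these libraries lay below the lowest control library.

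The middle of the FTR1 order again held groups with near-equal levels. M491-D01 stood at 281, 254 and 198 CPM. M491-E04 stood at 241, 217 and 272 CPM. M491-C03 stood at 283, 261 and 229 CPM. Each lay wholly below the control. FTR1 in M491-C12 was at 331, 252 and 214 CPM. FTR1 in M491-F10 was at 239, 235 and 333 CPM. FTR1 in M491-C09 was at 263, 308 and 236 CPM. None of these 3 groups reached the resubmitted control library. In M491-D07 the values were 321, 296 and 257 CPM. In M492-E01 they were 277, 295 and 413 CPM, the last above the resubmitted control.

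Among the upper FTR1 groups, those that ranked below the control overlapped it, if at all, through its resubmitted library. M492-C04 held 347, 298 and 371 CPM. M492-D07 held 305, 283 and 448 CPM. M497-F10 held 336, 353 and 331 CPM. Of these, M497-F10 lay below all 3 control libraries, by a narrow margin. FTR1 in M492-C11 was 325, 304 and 418 CPM. FTR1 in M491-E09 was 392, 366 and 310 CPM. FTR1 in M491-F02 was 348, 353 and 364 CPM, nearly equal in both sets. M495-C02 had 339, 378 and 387 CPM. Above the control came M493-C02 with 550, 464 and 439 CPM and M492-E11 with 606, 535 and 421 CPM. Here 24 of 25 neighbouring pairs differed by less than the residual SD of 0.24 on the log2 scale, and the step of 0.35 from M495-C02 to the control was the exception. M492-E11 and M493-C02 thus had the highest levels of both genes, and these were the clones in which neither gene was below the control after adjustment for set.

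Across groups the levels of FET3 and FTR1 ran in parallel within each library set. Over the 26 groups, Pearson's r between their log2 CPM was 0.96 and Spearman's rho 0.94 in the first set, and 0.95 and 0.91 in the resubmitted set. Without the 2 groups farthest from the FET3 median, r was 0.95 in both sets. Both genes of a point were read from the same libraries, and the groups share the set's processing, so this is a description of these libraries. The ratio of FET3 to FTR1, each per kilobase of coding length, was 0.685 to 1.14 in the first set, with a median of 0.941. In the resubmitted set it was 0.746 to 1.38, with a median of 1.15. The control's own ratio was 0.911, 0.892 and 1.14, so it moved between the sets as most clones did. The lowest first-set ratios were those of M492-C04, at 0.685 and 0.731, in which FET3 was reduced further than FTR1.

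Averaged over the 25 clones, FET3, FTR1 and TIS11 lay farthest below the control, and the reductase genes, FTH1 and HMX1 lay close to it. The log2 fold change of this average was -0.77 (SE 0.146) for FET3, -0.80 (SE 0.124) for FTR1, -0.58 (SE 0.147) for TIS11 and -0.19 (SE 0.0606) for MRS4. For the others it was -0.18 (SE 0.0856) for CCC2, 0.06 (SE 0.044) for FRE1, -0.03 (SE 0.0436) for FTH1, -0.02 (SE 0.0657) for FRE2 and 0.00 (SE 0.128) for HMX1. The median over the 9 was -0.18, against -0.00 over all genes tested. In linear terms the clones averaged 0.588 times the control for FET3, 0.575 times for FTR1 and 0.667 times for TIS11. In the edgeR quasi-likelihood fit 4 of the 9, FET3, FTR1, TIS11 and MRS4, were called in this comparison, where 6.33% of all 5212 genes tested were called, 193 higher and 137 lower. The members were chosen with this contrast known, so nothing is read from their share. The TIS11 call was lost without control replicate 1 (-0.44) and without control replicate 2 (-0.40), and the MRS4 call when any 1 of the 3 control libraries was left out. Without the resubmitted control library, whose name differs, FET3 was at -0.94, FTR1 at -0.99, TIS11 at -0.88 and CCC2, then called, at -0.32. Leaving out M492-E01 gave -0.78 for FET3 and -0.81 for FTR1. Markers of alpha cells moved in the same average by edgeR's quasi-likelihood test, where MF(ALPHA)1 fell by 0.68 (SE 0.136, adjusted p = 0.000825) and STE3 by 0.36 (SE 0.0736, adjusted p = 0.00111), and the other 2 did not pass. Of the a-cell genes, STE2 was at 0.03 (adjusted p = 0.85) and BAR1 at 0.04 (adjusted p = 0.829) by the same test. The control libraries held 865, 788 and 304 CPM of MF(ALPHA)1, so the resubmitted one was far below the others. Its mean difference by set was -0.93 and then -0.06, and that of STE3 -0.42 and then -0.23, first-set libraries named first. The later value of each pair rests on 1 control library. Whether the calls of MF(ALPHA)1 and STE3 hold with a control library left out was not tested. Whether the alpha-cell and a-cell markers have a part in the iron gene values was not tested either.

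The comparisons of single clones with the control all share the same 3 control libraries and are given side by side. FET3 was called lower in 15 of 25 clones and FTR1 in 15, and 14 of these clones were the same. The exceptions were M492-C04, where only FET3 was called, and M491-D07, where only FTR1 was. TIS11 was called lower in 12 clones, all among those with FET3 called. MRS4 was called lower in 7 clones, CCC2 in 4 and FTH1 in 2. FRE1 was called higher in 3 and lower in 2, FRE2 higher in 1, and HMX1 in none. DESeq2 called HMX1 in 1 clone. Of 225 values, 61 were called, 57 lower and 4 higher. The share of all genes called in a clone ran from 0.0192% in M492-D07 to 50.3% in M495-F02. It is given for each clone below, and nothing is read from the members' counts. Without control replicate 2 the number called was 44, and in the first set alone it was 104.

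**Figure D2:**
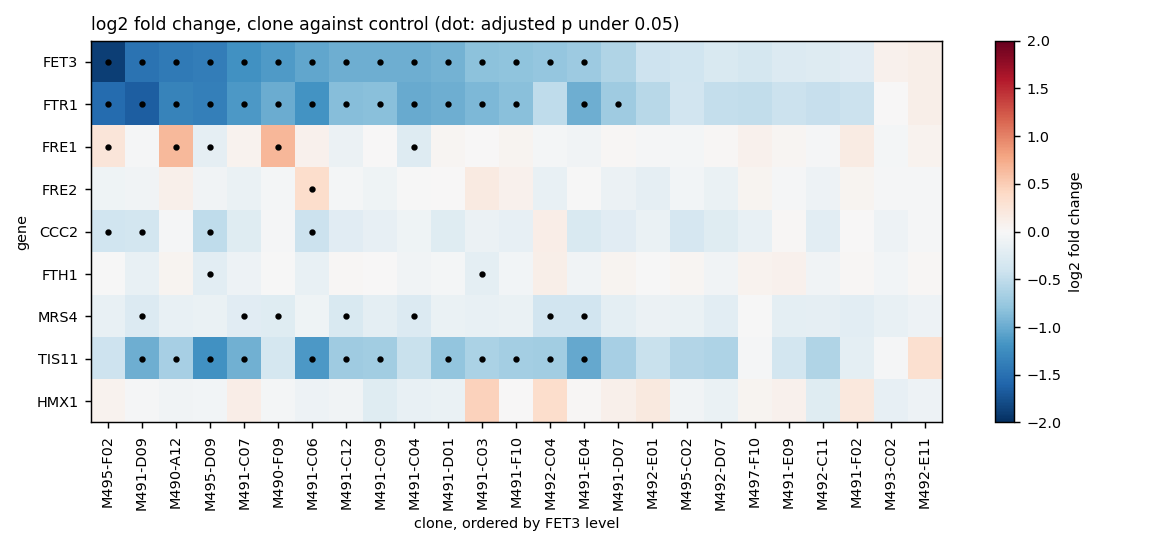
Log2 fold change of each of the 9 genes (rows) in each of the 25 clones (columns, ordered by FET3 level) against the control, in blue for lower and red for higher; a dot marks an adjusted p under 0.05 in the fit over all genes. The FET3 and FTR1 rows darken together to the left, FRE1 is red in M490-A12 and M490-F09, and the clones at the right carry no dot.

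Clones differed in how many of the 9 genes were called, and also in how many genes of the genome were. M495-D09 had the most, with 6 lower (FET3, FTR1, TIS11, CCC2, FTH1 and FRE1), where 13.4% of all genes tested were called. M491-D09 had 5 lower, with 13.2% of all genes called. M491-C06 had 4 lower and FRE2 higher, with 20.1% of all genes called. In M495-F02, where 50.3% of all genes were called, FET3, FTR1 and CCC2 were lower and FRE1 higher. In M490-A12, with 22.4%, FET3, FTR1 and TIS11 were lower and FRE1 higher. M490-F09, with 16.1%, had FET3, FTR1 and MRS4 lower and FRE1 higher. FET3 and FTR1 were lower together with TIS11 and MRS4 in M491-C07, M491-C12 and M491-E04, where 24.1%, 7.31% and 7.64% of all genes were called. They were joined by FTH1 and TIS11 in M491-C03, with 12.9%, and by MRS4 and FRE1 in M491-C04, with 15.0%. With TIS11 alone they were lower in M491-C09 at a background of 7.71%, in M491-D01 at 10.8% and in M491-F10 at 20.4%. M492-C04 had FET3, TIS11 and MRS4 lower, with 6.39% of all genes called, and M491-D07 had FTR1 lower, with 6.22%. In the other 9 clones none of the 9 genes was called. The shares of all genes called there were 3.93% for M491-E09, 3.4% for M492-E01, 1.57% for M495-C02, 1.48% for M497-F10, 0.883% for M492-E11, 0.46% for M491-F02, 0.0767% for M493-C02, 0.0384% for M492-C11 and 0.0192% for M492-D07. DESeq2 likewise called none of the 81 values of the members in these clones. In the edgeR quasi-likelihood fit 17 of the 81 had an unadjusted p under 0.05, so the lack of a call does not show a lack of change. Few genes of any kind were called in these clones.

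The number of calls differed by plate position. All 12 clones of first-set rows A and B had at least 1 of the 9 genes called, against 4 of the 13 clones of rows C, D and E. The share of all genes called split the same way, from 6.22 to 24.1% with a median of 13.1% in the clones of rows A and B. In rows C, D and E it was 0.0192 to 50.3% with a median of 1.57%, and under 4% in 9 of the 13 clones, so this split is not particular to the iron genes. In the resubmitted set, FET3 ranged from 227 to 591 CPM with a median of 350 in the 12 clones of row A, and from 298 to 946 CPM with a median of 760 in the 12 clones of row B. FTR1 ranged from 194 to 272 CPM with a median of 216 in row A, and from 227 to 448 CPM with a median of 379 in row B. The first-set medians for FET3 were 356, 382, 477 and 459 CPM in rows A, B, C and D, and 558 CPM for the single clone of row E. TIS11 did not show this split in the resubmitted set, with medians of 52.0 CPM in row A and 55.6 CPM in row B. Clones and rows coincide, and the control shared its rows with M497-F10 only, so row and clone cannot be told apart for most of these differences. With resubmitted row A as one batch, resubmitted rows B and C as another and the first set as the last, the FET3 average was -0.71 and the FTR1 average -0.77, and both stayed called.

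The genes of the surface reductases behaved unlike the oxidase and the permease. FRE1 stood at 68.1, 66.3 and 80.1 CPM in the control, a mean of 71.5 ± 7.54 (SD, n = 3). It was highest in M490-F09, at 112, 99.1 and 127 CPM, and in M490-A12, at 107, 101 and 129 CPM. In each of these clones every library lay above every control library, while FET3 and FTR1 lay below. M495-F02 came next with 83.4, 82.6 and 86.2 CPM. The lowest groups were M491-C04 with 57.5, 57.4 and 65.0 CPM, M495-D09 with 56.7, 60.8 and 72.4 CPM, and M491-C12 with 68.2, 58.3 and 71.1 CPM. The FRE1 log2 fold change against the control was 0.66 (SE 0.06) in M490-F09, 0.65 (SE 0.0601) in M490-A12 and 0.24 (SE 0.0605) in M495-F02, and -0.25 (SE 0.0619) in M491-C04. The step of 0.41 between M495-F02 and M490-A12 was the largest in the FRE1 order, and 23 of 25 neighbouring pairs differed by less than the residual SD of 0.073. FRE2, the other reductase, was flat by comparison, at 30.8, 33.6 and 31.0 CPM in the control. Its highest group was M491-C06 with 41.9, 39.8 and 40.7 CPM, all above the control, a log2 fold change of 0.35 (SE 0.0903). M491-C03 with 39.6, 33.4 and 35.1 CPM and M490-A12 with 32.9, 31.6 and 38.0 CPM overlapped the control. At the low end M492-E01 had 26.6, 26.9 and 30.9 CPM, M492-C04 27.8, 28.9 and 30.0 CPM, and M492-D07 27.3, 27.8 and 32.1 CPM.

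Genes of copper supply were read beside these, since Fet3 is a copper enzyme. They too were chosen with earlier results of these data known, so their values and calls are descriptions. CTR1, the high-affinity copper transporter and another Mac1 target, stood at 62.9, 67.9 and 68.8 CPM in the control. It was 127, 133 and 130 CPM in M490-A12 and 131, 117 and 123 CPM in M490-F09, the clones with the highest FRE1. On the log2 scale CTR1 rose there by 0.97 (SE 0.0741, adjusted p = 6.46e-15) and 0.89 (SE 0.0739, adjusted p = 5.76e-14) by edgeR's quasi-likelihood test. It also rose in M491-C07, by 0.40 to 85.6, 90.4 and 87.4 CPM, and 5 clones in all were called higher and none lower. The share of all genes called was 22.4% in M490-A12, 16.1% in M490-F09 and 24.1% in M491-C07, and nothing is read from these calls. Averaged over the clones CTR1 rose by 0.17 (SE 0.0548, adjusted p = 0.0461), a call lost under 34 of 86 other settings, and it was below the control in 4 of 25 clones. CTR3, a second copper transporter gene, stood at 10.5 ± 0.422 CPM in the control (SD, n = 3), and its average log2 fold change was -0.02 (adjusted p = 0.914). MAC1 itself stood at 49.9 ± 5.64 CPM, with an average of -0.01 (adjusted p = 0.949) by the same test, and both signs turned under other settings. The copper chaperone gene ATX1 was not analysed here.

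**Figure D3:**
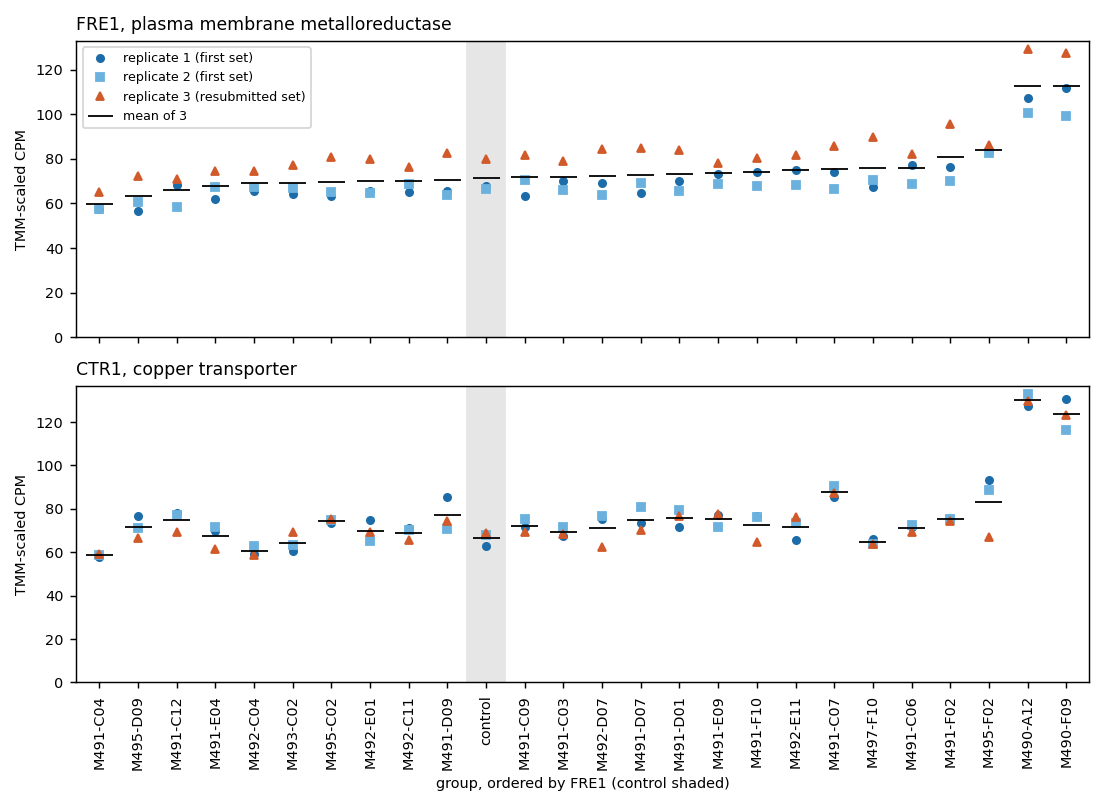
TMM-scaled CPM of FRE1 (upper panel) and CTR1 (lower panel) in every library (y axes), with the 26 groups on the x axis in the order of their FRE1 level and the control shaded; symbols as for FET3. M490-A12 and M490-F09 stand apart at the right in both panels, at 99.1 to 129 CPM for FRE1 and 117 to 133 CPM for CTR1.

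CCC2, the copper pump gene, stood at 111, 112 and 70.5 CPM in the control, so its resubmitted library was far below the first-set ones. The lowest groups were M495-D09 with 70.5, 66.6 and 67.3 CPM, M491-C06 with 68.6, 68.1 and 79.3 CPM, and M495-F02 with 85.9, 80.7 and 56.0 CPM. All of these overlapped the control through its resubmitted library. The log2 fold change was -0.51 (SE 0.122) in M495-D09, -0.42 (SE 0.122) in M491-C06 and -0.40 (SE 0.122) in M495-F02. The highest groups were M492-C04 with 103, 109 and 106 CPM, M491-E09 with 118, 103 and 78.5 CPM, and M491-F02 with 97.8, 102 and 91.6 CPM. No pair of neighbours in the CCC2 order differed by more than the residual SD of 0.155 on the log2 scale.

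The genes that move iron within the cell varied least. FTH1, the vacuolar permease gene, stood at 145, 144 and 121 CPM in the control. Its lowest groups were M495-D09 with 116, 121 and 116 CPM, M491-C03 with 126, 130 and 105 CPM, and M491-D09 with 128, 128 and 113 CPM. In the highest group, M492-C04, FTH1 stood at 153, 148 and 141 CPM, and M491-E09 (153, 158 and 124 CPM) and M497-F10 (155, 152 and 125 CPM) were next. MRS4, the mitochondrial carrier gene, was highest in the control, at 33.3, 35.2 and 38.6 CPM. All 25 clones had a lower set-adjusted level, by 0.01 to 0.38 on the log2 scale. M492-C04 with 27.2, 27.1 and 28.0 CPM, M491-E04 with 26.9, 28.3 and 27.2 CPM, and M491-C12 with 30.0, 31.9 and 24.7 CPM were the lowest and lay below every control library. M497-F10 (34.0, 35.5 and 36.9 CPM), M491-C06 (37.6, 34.5 and 29.1 CPM) and M492-E11 (31.6, 34.5 and 33.2 CPM) were nearest to it. For both FTH1 and MRS4 all 25 neighbouring pairs of groups differed by less than the residual SD, 0.0735 and 0.106 on the log2 scale.

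TIS11, which encodes the messenger RNA decay factor, stood at 69.8, 72.2 and 44.9 CPM in the control, a mean of 62.3 ± 15.1 (SD, n = 3). Its lowest groups were M495-D09 with 23.3, 23.5 and 38.3 CPM, M491-C06 with 23.5, 18.7 and 48.4 CPM, and M491-D09 with 23.5, 24.4 and 53.7 CPM. Only the first of these was below all control libraries, since replicate 3 of the others exceeded the resubmitted control. The highest group was M492-E11 with 84.5, 76.2 and 78.6 CPM, above every control library. M493-C02 with 63.8, 60.6 and 66.2 CPM followed, and M497-F10 with 72.4, 66.4 and 46.3 CPM lay at the control's level in each set. HMX1, the haem oxygenase gene, was the least abundant, at 7.49, 8.25 and 4.58 CPM in the control. M491-C03 with 10.9, 10.1 and 7.10 CPM, M492-C04 with 7.92, 9.91 and 7.83 CPM, and M491-F02 with 8.87, 7.74 and 6.82 CPM were the highest groups, and each overlapped the control. M491-C09 (6.82, 5.76 and 4.54 CPM), M492-C11 (6.51, 5.88 and 4.83 CPM) and M493-C02 (6.42, 5.96 and 5.52 CPM) were the lowest. At these counts no pair of neighbouring groups differed by more than the residual SD of 0.229.

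The resubmitted set offered a comparison that the choice of genes had not used, and 7 of the 9 genes differed between the sets in the fit over all groups. Of all genes tested 84.6% did so, 2159 higher and 2252 lower in the resubmitted set, so a count of 7 in 9 is not particular to iron genes. TIS11 was higher in the resubmitted set by a log2 difference of 0.44 (SE 0.0641, adjusted p = 1.09e-08), in 22 of 26 groups. FET3 was higher by 0.31 (SE 0.0651, adjusted p = 2.64e-05), in 19 of 26 groups. FRE1 was higher by 0.25 (SE 0.0177, adjusted p = 1.64e-19), in all 26 groups, the control included. FRE2 was higher by 0.10 (SE 0.027, adjusted p = 0.000554), in 16 groups. HMX1 fell by 0.41 (SE 0.0542, adjusted p = 6.51e-10) and was higher in only 3 groups. FTH1 fell by 0.21 (SE 0.0181, adjusted p = 3.29e-16) and was higher in none of the 26. CCC2 fell by 0.19 (SE 0.0363, adjusted p = 5.83e-06) and was higher in 7 groups. FTR1, at 0.06 (SE 0.0559, adjusted p = 0.317), and MRS4, at -0.03 (SE 0.0256, adjusted p = 0.245), did not pass the edgeR quasi-likelihood test. Each of these values is 1 shift averaged over the groups, and single groups differed from it. Among the clones FTR1 changed by -0.44 in M490-F09 to 0.78 in M495-F02, and it was higher in 14 of 26 groups. FET3 changed by -0.73 in M490-F09 to 1.09 in M492-D07.

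In the control the change from the first to the resubmitted set went against that of most clones for FET3 and TIS11. FET3 changed by -0.26 on the log2 scale in the control and by a median of 0.21 in the clones. TIS11 changed by -0.66 in the control and by a median of 0.53 in the clones, which ranged from -0.58 in M497-F10 to 1.20 in M491-C06. FTR1 changed by -0.60 in the control against a median of 0.07, and CCC2 by -0.66 against -0.13. For FRE1 the control and the clones moved alike, 0.25 and 0.28. The difference from the control therefore depended on the set. FET3 was below the control in 24 of 25 clones in the first set, with a median of -1.0, and in 17 clones in the resubmitted set, with a median of -0.32. FTR1 gave 24 clones and -0.92, then 17 clones and -0.47. TIS11 was below the control in 24 clones in the first set, with a median of -0.95, and in 5 clones in the resubmitted set, with a median of 0.25. CCC2 was below in 25 clones (-0.34) and then in 3 (0.17). MRS4 was below in 23 and 25 clones, with medians of -0.11 and -0.33. The resubmitted side of each of these rests on 1 control library.

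**Figure D4:**
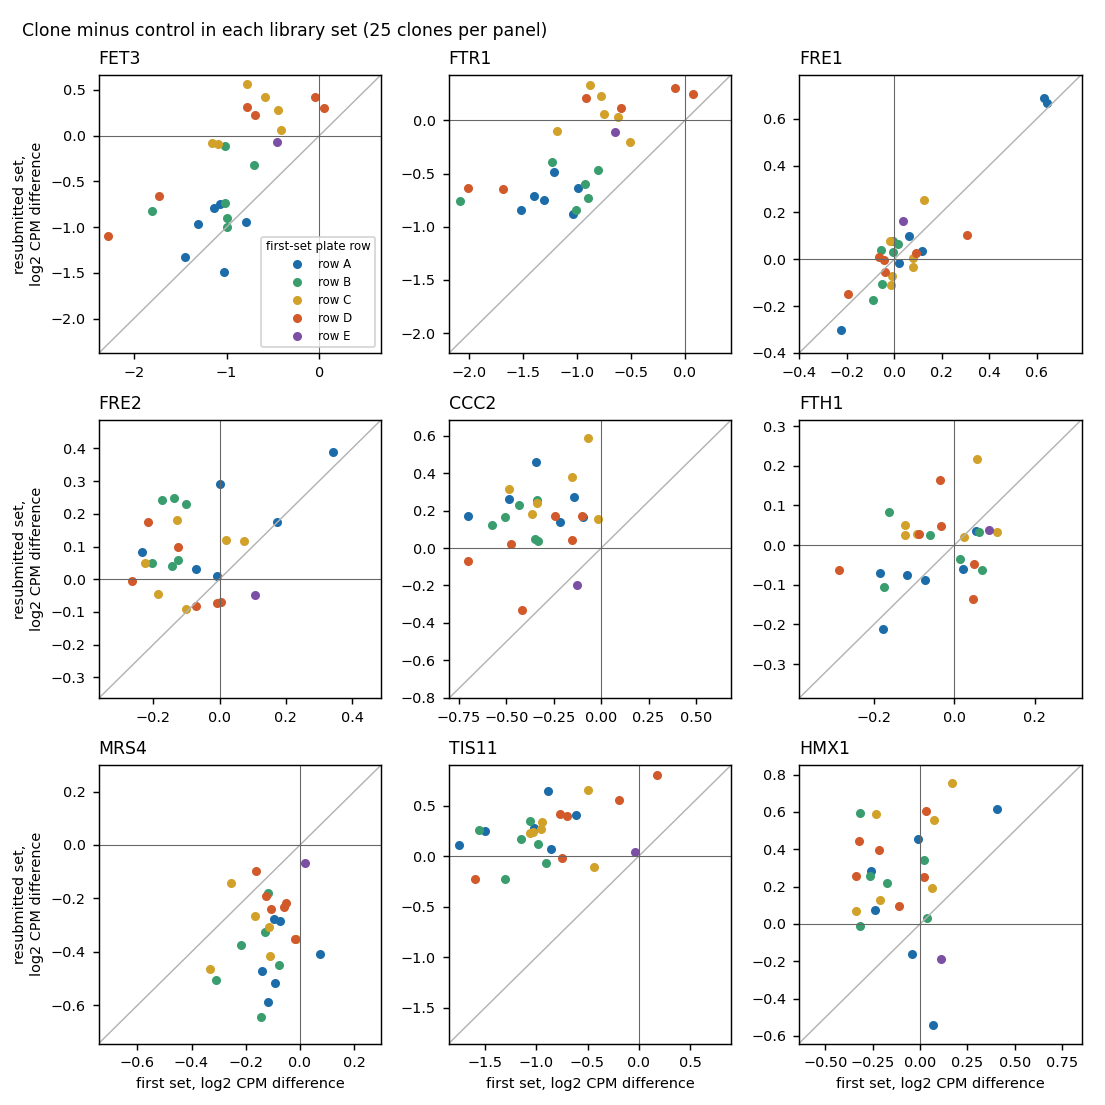
Clone minus control in log2 CPM for each gene, with the first set on the x axis (mean of 2 libraries) and the resubmitted library on the y axis; each point is 1 of 25 clones, coloured by its first-set plate row, and the grey line marks equal differences. The M490-A12 and M490-F09 points lie on the line for FRE1, while for TIS11 and CCC2 most points lie left of 0 and above 0.

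Levels in one set were mirrored in the other for some genes only. Over the 26 groups Pearson's r between the first-set and resubmitted log2 CPM was 0.92 for FRE1, 0.68 for FTR1 and 0.66 for FET3, with Spearman's rho of 0.70, 0.71 and 0.70. It was 0.35 for TIS11, 0.30 for FTH1, 0.27 for MRS4, 0.26 for FRE2, 0.14 for CCC2 and 0.07 for HMX1. Group accounted for 84.4% of the sum of squares of log2 CPM for FTR1, 78.7% for FET3 and 68.9% for FRE1. The share was 58.3% for TIS11 and 26.5% for HMX1, while library set took 50.1% for FTH1 and 39.5% for HMX1. All 9 genes were called in the test of differences among the 25 clones, which does not use the control, where 83.6% of all genes were called. Pairs of genes also ran together to an extent that differed by set. Between FET3 and TIS11, r was 0.71 for first-set and 0.16 for resubmitted libraries, and between CCC2 and TIS11 it was 0.80 and 0.33. FET3 and FRE1 had -0.18 and -0.37, and the latter was 0.14 without the 2 groups farthest from the FET3 median.

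Of genes of siderophore uptake, another route that Aft1 is known to control, 9 were listed and 8 tested. In the same average 5 fell, FIT2, FIT3, ARN1, ARN2 and SIT1, and 3 did not pass, where 6.33% of all genes were called in either direction. The median log2 fold change was -0.45 over the 8 against -0.00 for all genes. This list, the copper genes above and the iron gene lists below were also chosen with earlier results of these data known. Their values and calls are therefore descriptions, and nothing is read from their share. The 3 that did not pass, named after their values were seen, were ENB1 at -0.32 (SE 0.104, adjusted p = 0.0542), FRE3 at -0.08 (SE 0.0921, adjusted p = 0.666) and FRE4 at 0.21 (SE 0.0703, adjusted p = 0.0619) by edgeR's quasi-likelihood test. FRE4, a reductase gene, was above the control in all 25 clones and called higher in 5. FIT3, a wall mannoprotein that retains siderophores, stood at 2103, 2446 and 644 CPM in the control and fell by 0.78 (SE 0.185, adjusted p = 0.00498). FIT2, of the same family, stood at 1113, 1226 and 372 CPM and fell by 0.75 (SE 0.19, adjusted p = 0.00928). In both genes the resubmitted control library was far below the other control libraries. SIT1, a ferrioxamine transporter, stood at 235, 223 and 81.7 CPM and fell by 0.68 (SE 0.16, adjusted p = 0.00511). ARN1, a ferrichrome transporter, stood at 187, 196 and 140 CPM and fell by 0.50 (SE 0.104, adjusted p = 0.0014), by edgeR's quasi-likelihood test in each case. The calls of these 4 genes were lost without control replicate 1 or 2, and those of FIT2, FIT3 and SIT1 also with no library set term. Split by set, the mean difference was -1.13 and 0.19 for FIT3, -1.03 and -0.06 for FIT2, -0.95 and 0.05 for SIT1, and -0.66 and -0.14 for ARN1, the first set named first. FIT2 and FIT3 were lowest in M495-F02, at 232, 198 and 140 CPM and at 417, 357 and 313 CPM. ARN1 and SIT1 were lowest in M491-D09, at 81.1, 79.4 and 102 CPM and at 58.5, 55.7 and 62.4 CPM. The mannoprotein gene FIT1 was not analysed here.

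None of the 7 iron regulators and sensors passed edgeR's quasi-likelihood test in the average, 1 had an unadjusted p under 0.05, and DESeq2 called none. GRX4, a glutaredoxin that relays iron status to Aft1, was at -0.15 (SE 0.0616, adjusted p = 0.139). AFT1 was at -0.12 (SE 0.0745, adjusted p = 0.355) by the edgeR quasi-likelihood test, with 95.5, 104 and 91.9 CPM in the control, and was called lower in 3 clones and in the first set alone (-0.23). YAP5, the activator at high iron, was at 0.11 (adjusted p = 0.542) and GRX3 at -0.06 (adjusted p = 0.597). The list median was -0.04. Among 6 genes of vacuolar and other iron transport, 2 fell, 1 rose and 3 did not pass, against the same 6.33% of all genes called. FET4, a low-affinity iron transporter of the plasma membrane, fell by 0.45 (SE 0.13, adjusted p = 0.0236) from 341, 344 and 274 CPM in the control, a call lost when any 1 of the control libraries was left out and with no library set term. SMF3, a vacuolar metal exporter, fell by 0.29 (SE 0.0551, adjusted p = 0.000365) and was lower in 25 of 25 clones, a call lost without control replicate 2 (-0.23) and with no library set term (-0.30). MRS3, the paralogue of MRS4, rose by 0.14 (SE 0.0362, adjusted p = 0.0136) and was below the control in 2 clones only, whereas MRS4 was below it in all 25. The MRS3 call was lost without control replicate 1 or 2 and with no library set term. FRE6, a vacuolar reductase gene, was at -0.14 (SE 0.0462, adjusted p = 0.053) and passed under 38 of 86 other settings, the first set alone among them. The adjusted p values of this list are from edgeR's quasi-likelihood test, gene by gene. The list median was -0.08, with values of both signs, and a direction common to the list was not tested.

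Genes of iron-using proteins, some of whose messages Tis11 is known to bind, mostly did not pass in the average. Of 14, LEU1 rose, ERG3 fell and 12 did not pass, with a median of 0.01 and with 6.33% of all genes called. LEU1, an iron-sulphur isomerase of leucine synthesis, rose by 0.37 (SE 0.101, adjusted p = 0.0137) from 526, 561 and 621 CPM in the control and was highest in M492-C04, at 1052, 1114 and 1093 CPM. That call was lost without control replicate 1 or 2 and with no library set term. ERG3, a di-iron sterol desaturase, fell by 0.39 (SE 0.0721, adjusted p = 0.00032) from 880, 911 and 754 CPM and was below the control in 22 of 25 clones. It was lowest in M495-F02, at 407, 396 and 316 CPM, and highest in M492-C04, at 1820, 1718 and 1765 CPM. The biotin synthase gene BIO2 was at 0.18 (SE 0.079, adjusted p = 0.154) and the succinate dehydrogenase gene SDH2 at 0.12 (SE 0.0508, adjusted p = 0.143) by edgeR's quasi-likelihood test. Single clones differed from this average. SDH2 was called higher in 10 clones and lower in none, and BIO2 higher in 9 and lower in 1. LEU1 was called higher in 9 clones and lower in none, whereas ERG3 was called lower in 15 and higher in 1. SDH4, named after its values were seen, was called higher in 9 clones and lower in 2. The rest of the list was also named after its values were seen. RLI1 was called lower in 3 clones and RIP1 and CYT1 in 2 each, none of them higher. ACO1 was called lower in 2 and higher in 1. ISA1 was called higher in 4 clones, CCP1 in 3 and LIP5 in 1, none of them lower. GLT1 and HEM15 were called in no clone. The share of all genes called in a clone ran from 0.0192 to 50.3%, and nothing is read from these counts. In the first set alone SDH2, at 0.17 (adjusted p = 0.000178), and BIO2, at 0.21 (adjusted p = 0.013), also passed the edgeR test in the average. M492-C04 combined the highest LEU1 and ERG3 levels with the lowest MRS4 and the highest CCC2 and FTH1.

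**Figure D5:**
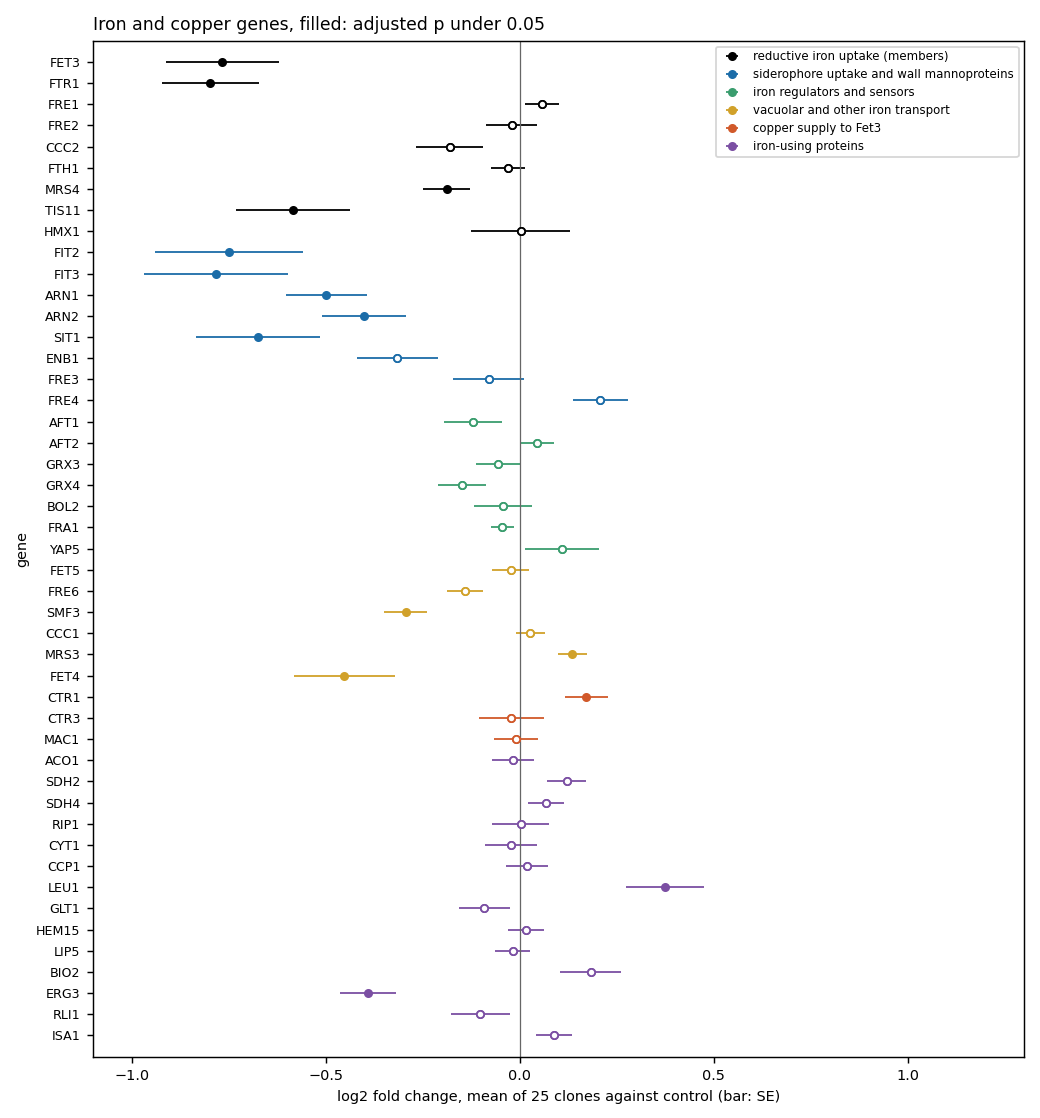
Log2 fold change of the mean of 25 clones against the control (x axis, bar: SE) for the 9 reductive uptake genes and the other iron and copper genes with a row (y axis), coloured by list and filled where the adjusted p was under 0.05. FTR1 (-0.80), FIT3 (-0.78), FET3 (-0.77) and FIT2 (-0.75) lie farthest to the left, and the iron regulators cluster around 0.

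The genes whose pattern was most like the mean of the 9 were of mixed kinds, some of metal handling and others not. Whether metal genes are more frequent there than among all genes was not tested. Each member was centred and scaled over the 26 set-adjusted group levels, and the Pearson correlation with the mean of the 9 was taken for the genes that passed the filter. SIT1 led at 0.84, followed by EMP65, an endoplasmic reticulum membrane protein gene, at 0.83. FRE5, a gene of the reductase family, was at 0.80 and stood at 148 CPM in the control. CTR2, a vacuolar copper transporter gene, was at 0.79, with 130 CPM in the control. The replicative helicase genes MCM4 and MCM6 were at 0.77 and 0.76, and the transfer RNA ligase gene TRL1 was at 0.74. SMF3 was at 0.74, the histone deacetylase gene HDA1 at 0.74 and the replication factor gene ELG1 at 0.73. At the other end were the repair gene RAD7 at -0.76, the kinase gene HRK1 at -0.74, the zinc finger genes STP4 and STP3 at -0.72 each, and MIC12, of the mitochondrial inner membrane, at -0.72. The members' own correlations with their mean, of which each is a part, ran from 0.82 for TIS11, 0.76 for FTR1, 0.75 for CCC2 and 0.70 for FET3 down to 0.31 for FRE1, 0.21 for HMX1 and 0.19 for FRE2. All points share the 78 libraries and 1 fit, and the genes most alike were picked from all that passed the filter.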

How the data were processed

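The authors deposited 78 files of counts per gene, whole numbers without normalization. The submitters' processing notes and design text give fastp 0.23.1 for trimming and for removal of duplicates by molecular identifier, STAR 2.5.2b for alignment, and featureCounts (Subread 1.5.2) for counts of unique hits. Deduplicated counts are nearer to molecules than reads are. Genes used in a fusion could lose or gain reads. The submitters' processing notes name build R64, but per the file headers the counted features sit on contigs that are not R64's, so the R64 table served for names only (5058 of 5229 genes matched), and neither coordinates nor sequences were taken from it. The row without a name (median 0.886% of counts) and the UNDEF row (2.36%) were left out.

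Counts were tested with edgeR 4.0.16 (R 4.3.3, limma 3.58.1) by the quasi-likelihood test, with TMM scaling, filterByExpr, terms for group and library set, 51 residual degrees of freedom and Benjamini-Hochberg adjustment over 5212 genes (17 removed) at 0.05. All 9 members passed the filter. Log2 CPM used a prior count of 2. The script was tested on simulated data. These held changes in M490-A12 only and no shift between library sets, so they do not test how the fit handles the sets. Alternatives were the replicate block, no set term, plate rows as batches (the first set, resubmitted row A, and resubmitted rows B and C together), RLE factors, DESeq2 1.42.0, no filter on low counts, first-set libraries alone, leaving out each library and, chosen after the data were seen, leaving out M492-E01. Depths per library and what they limit are given above.

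The members and gene lists were chosen with earlier results of these data known. The text names all members, with the control and the 3 highest and 3 lowest clones of each, FET3 and FTR1 in every group, up to 4 genes per other list by absolute average change, and the 10 genes most and 5 least alike.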

Additional observations from a re-analysis of the deposited data

Results flagged for a closer look

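Flagged here are clones whose difference from the control pointed one way in both first-set libraries and the other way in the resubmitted library. Whether a clone's difference from the control changed between the sets was not tested. The resubmitted side rests on 1 control library in every case. Clones that lay below both first-set control libraries and above the resubmitted one numbered 21 for CCC2, 18 for TIS11, 9 for HMX1, 8 for FTH1, 7 for FRE2, 6 for FET3, 6 for FTR1 and 2 for FRE1. Clones with the opposite change, above the first-set controls and below the resubmitted one, numbered 3 for FTH1, 1 for FRE1 and 1 for HMX1. MRS4 had none of either kind. Such clones were counted for the 9 genes only, and 84.6% of all genes tested differed between the library sets. Whether these counts are particular to the iron genes was not tested. For FET3 the 6 clones were M491-E09, M491-F02, M492-C11, M492-D07, M492-E01 and M495-C02, all of first-set rows C and D.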

How the results depend on the processing

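The 330 genes called in the average of the 25 clones against the control became 58 with no library set term, 551 with plate rows as batches (the first set, resubmitted row A, and resubmitted rows B and C) and 1346 in the first set alone. Leaving out 1 library gave 89 to 475, with 97 without control replicate 1 and 89 without control replicate 2. With the replicate block the number was 324. Genes that differed among the clones fell from 4356 to 2011 with no set term. Calls of members in single clones numbered 61, and were 32 with no set term, 104 in the first set alone and 44 to 68 with 1 control library left out. With a clone's library left out, only that clone's comparison was taken anew, so no total is given for those settings. FET3 stayed between -0.66 and -0.95 and FTR1 between -0.67 and -1.0 on the log2 scale, both called under all 86 alternatives. MRS4 lost its call under 25 of 86, the replicate block, no set term, the first set alone and each control library among them. TIS11 lost its call with no set term (-0.52) and without control replicate 1 or 2, and CCC2 was called in the first set alone (-0.33). Of the other named genes, FIT2, FIT3, SIT1, FET4, SMF3, MRS3, CTR1 and LEU1 lost their calls with no set term, and AFT1, FRE6, SDH2 and BIO2 gained one in the first set alone. CTR3 turned positive in the first set alone (0.014) and ranged from -0.050 to 0.018 with 1 library left out. MAC1 turned positive with plate rows as batches (0.0081) and in the first set alone (0.080), and ranged from -0.091 to 0.082 with 1 library left out. The cause of these changes was not tested. The members' differences between library sets kept their side of the threshold in all 747 recomputed values.

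Same-numbered libraries of different groups deviated together, with correlations of 0.196 to 0.762 for number 1, 0.0752 to 0.777 for number 2 and 0.26 to 0.913 for number 3. The difference between replicates 1 and 2 had correlations of -0.307 to 0.314 between groups, with a median of 0.0128. No pairing by number common to all groups was thus seen within the first set. Some pairs of groups did share such a difference, in the same or the opposite direction. The numbers carry the library set, which the fit holds as 1 shift common to all groups. Within a group the median chi-square per gene was 4.48 between replicates 1 and 2. Between first-set and resubmitted libraries it was 104, the common shift included. The fit has no term for a shift that differs by group. It treats replicates 1 and 2 of a group as independent, which they may not be. The control's 3 libraries limit every comparison with it. HMX1 has the fewest counts, 35 to 148 per library.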
